A study of Mus musculus with 8 samples.

Results

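The genes described here are 10 genes of the cardiac and smooth muscle contractile apparatus: Tnnt2, Tnni1, Tnnc1, Myl4, Myl7, Acta2, Tagln, Actc1, Cnn1 and Sh3bgr. They were found by symbol and are 10 of the 24306 gene symbols kept from the deposited tables. They were chosen by their FPKM in the 4 groups, with earlier results known, so every level and difference of these 10 genes below is a description and carries no test.

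The study compared mouse E14 embryonic stem cells (ESC) and the neural progenitor cells (NPC) derived from them, with and without Wdr68, in a project on the role of WDR68 in a PRC1 complex with AUTS2. The 4 groups were Wdr68 knockout NPC (KO NPC), wild-type E14 NPC (WT NPC), Wdr68 knockout ESC (KO ESC) and wild-type E14 ESC (WT ESC), with 2 libraries of poly(A) RNA each. ESC grew with LIF and inhibitors of Mek and GSK3, on mouse embryonic fibroblast feeders or on gelatin. For NPC, cells spent 2 days in hanging drops of 500 cells and 2 more in low-attachment plates, and then had retinoic acid for 4 days. How the knockout was made and how many clones were used are not given in the sources used here. Nothing says that the 2 libraries of a group came from separate cultures, so p-values describe no more than library-to-library spread, which could be technical.

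Striated muscle contracts when calcium binds the troponin complex on the actin thin filament and lets myosin heads pull on it. Smooth muscle has no troponin, and calcium acts there through phosphorylation of the myosin regulatory light chain. The embryonic heart transiently uses genes that adult tissue assigns to smooth or slow skeletal muscle, among them Acta2, Tagln and Tnni1. None of these proteins is a usual marker of neural progenitors.

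Levels are FPKM as the authors deposited them, that is, fragments counted per kilobase of transcript and scaled to library depth. The tables implied 5985801 to 7931059 fragments per library, and 10870 to 12209 genes per library reached an FPKM of at least 1. The mRNA of Wdr68 is listed as Dcaf7. It stood at FPKM 8.36 and 8.99 in KO NPC, against 27.2 and 29.7 in WT NPC, and at 2.80 and 2.26 in KO ESC, against 12.4 and 14.2 in WT ESC. It fell by 1.60 ± 0.12 on the log2 scale in NPC and by 2.02 ± 0.12 in ESC (SE, limma adjusted p = 1.3e-04 and 0.00109). NPC is the labels' name for the differentiated cells of both genotypes, and their neural markers are given with the other cell type lists. Across all genes, limma called 27.4% of 13318 genes in KO NPC against WT NPC and 0.248% in KO ESC against WT ESC, at a Benjamini-Hochberg adjusted p under 0.05.

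Promoter sequences were available for 8 of the 10 genes in RefSeq windows of GRCm38.p6, which run from 250 bases before to 50 bases after each annotated start. Tnnt2 and Tnni1 had 2 such windows each, and the first is used for Tnnt2. Those of Tnnt2, Myl7 and Actc1 are shown because these genes had different patterns across the 4 groups, and because their windows held most of the motifs searched. Capitals mark, on either strand, the CArG box (the element bound by serum response factor), CATTCC (the core of the element bound by TEAD factors) and AGATAA (a core bound by GATA factors). Each line gives the stretch that ends at the base before the start site.
Tnnt2 (chr1:135836134-135836333, plus strand): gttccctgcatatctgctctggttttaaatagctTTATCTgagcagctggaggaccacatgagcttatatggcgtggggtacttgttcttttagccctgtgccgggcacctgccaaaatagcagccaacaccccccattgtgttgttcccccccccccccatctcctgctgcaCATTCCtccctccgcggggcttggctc
Myl7 (chr11:5898783-5898902, minus strand): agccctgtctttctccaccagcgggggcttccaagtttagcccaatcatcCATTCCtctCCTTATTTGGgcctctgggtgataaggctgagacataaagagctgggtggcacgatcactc
Actc1 (chr2:114052876-114052995, minus strand): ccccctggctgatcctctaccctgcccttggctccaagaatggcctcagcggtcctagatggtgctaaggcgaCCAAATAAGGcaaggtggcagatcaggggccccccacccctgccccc

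The CArG box was searched only as CCWWWWWWGG (W, A or T), and sequences with a mismatch were not counted. This form was found in 2 of the 8 genes, Actc1 and Myl7, at -47 to -38 and at -61 to -52 from the start. Of all 32851 windows 1.63% held one. CATTCC lay in the windows of Acta2, Myl7, Tnnc1 and Tnnt2, and in 14.7% of all windows. AGATAA was present in Tnnt2, where it reads TTATCT on the printed strand, and in 11.2% of all windows. The E-box CANNTG was in 7 of the 8 genes, but 72.3% of all windows hold one. TATAAA was in the Actc1 window, after the start at positions 34 to 39, and in 13.6% of all windows. The MEF2 site was searched only as CTAWWWWTAR (R, A or G). None of this form was found in these windows, and 1.86% of all windows had one. The marked motifs did not overlap each other. A match describes these letters and is not a measured binding site.

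The genes fell into a few patterns. For Tnnt2, Tnni1, Myl4, Sh3bgr and Cnn1 both KO NPC libraries stood above all others. For Cnn1 the margin was small, at 1.99 in the lower KO NPC library against 1.62 in the higher WT NPC library. Like these genes, Acta2 and Tagln were higher in NPC than in ESC of both genotypes, and Myl7 was highest in ESC. Acta2, Tagln and Tnnc1 also had their highest mean in KO NPC, but their libraries there overlapped another group. Tnnc1 and Actc1 stayed at low levels, with FPKM of at most 1.78 and 0.832 in any library. These are bulk samples, so fewer cells of a type and less RNA per cell cannot be told apart.

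**Figure D1:**
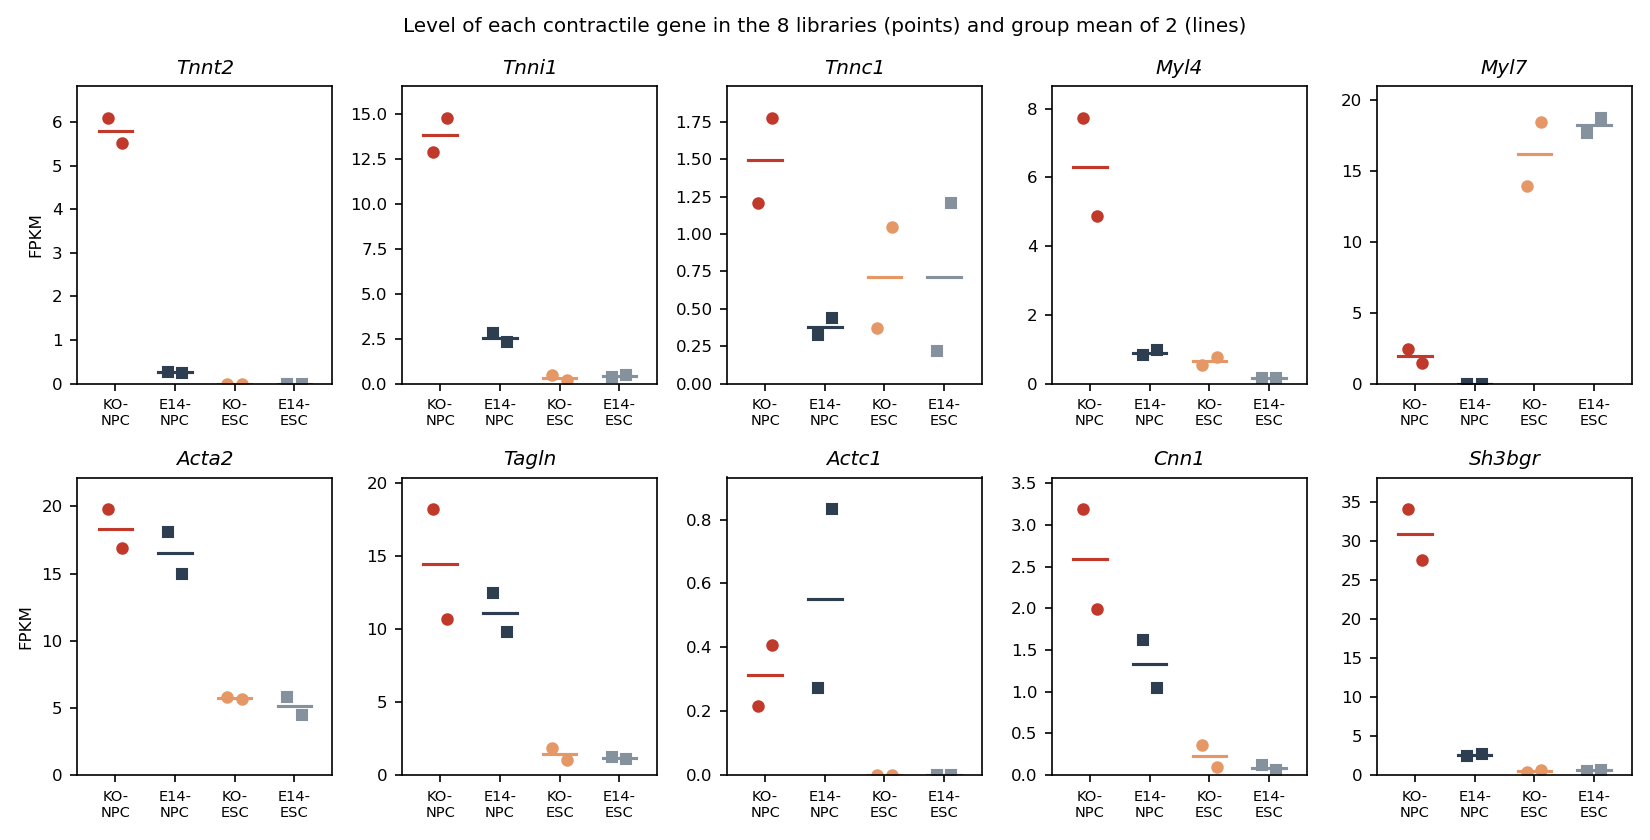
FPKM of each of the 10 genes (vertical axes, each with its own scale from 0) in the 2 libraries of KO NPC, WT NPC, KO ESC and WT ESC; points are libraries and lines are group means. For Tnnt2, Tnni1, Myl4, Sh3bgr and Cnn1 both KO NPC points lie above all others, while Myl7 has its highest points in ESC.

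Among the troponin genes, Tnnt2 encodes cardiac troponin T, which ties the complex to tropomyosin. Tnnt2 had FPKM 6.10 and 5.52 in KO NPC, 0.267 and 0.242 in WT NPC, and was listed at 0 in all 4 ESC libraries. Both KO NPC libraries were far above the rest, and the mean was 5.81 ± 0.414 in KO NPC against 0.254 ± 0.0171 in WT NPC (SD, n = 2 each). The ratio of these means was 22.8, and the difference on log2(FPKM + 1), the scale used for all differences below, was 2.44 ± 0.11 (SE). The deposited lower bounds in WT NPC were 0, so the ratio depends on values near the floor. The implied fragment numbers there, 0.831 and 0.437, are not relied on. That relation was not checked for genes with 2 start sites, such as Tnnt2. The difference reached 4.06 in another setting of the fit. The 95% intervals that the authors deposited for Tnnt2 were 4.55 to 7.66 and 4.05 to 6.98 in KO NPC, against upper bounds of 0.851 and 0.975 in WT NPC.

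Tnni1 encodes the slow skeletal troponin I, the inhibitory subunit, which is the main form of the embryonic heart. Its FPKM was 12.9 and 14.8 in KO NPC, 2.80 and 2.30 in WT NPC, 0.446 and 0.209 in KO ESC, and 0.384 and 0.482 in WT ESC. KO NPC stood above WT NPC and WT NPC above both ESC groups, whose values overlapped. The mean was 13.8 ± 1.33 in KO NPC and 2.55 ± 0.349 in WT NPC (SD, n = 2 each), a ratio of 5.43 and a difference of 2.06 ± 0.15 (SE).

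Tnnc1 encodes troponin C of cardiac and slow muscle, the subunit that binds calcium. It had FPKM 1.21 and 1.78 in KO NPC, 0.322 and 0.440 in WT NPC, 0.373 and 1.05 in KO ESC, and 0.214 and 1.21 in WT ESC. The 2 NPC groups did not overlap, but one WT ESC library reached the lower KO NPC value, and the SD in ESC was 0.476 in KO ESC and 0.704 in WT ESC. The Tnnc1 values rest on 7 and 11 implied fragments in KO NPC and on 1 to 6 in the other libraries. The difference between KO NPC and WT NPC was 0.84 ± 0.31 (SE).

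The myosin light chain genes Myl4 and Myl7 differed from each other. Myl4 encodes the essential light chain of the atrium and of embryonic muscle. It had FPKM 7.73 and 4.86 in KO NPC, 0.829 and 0.969 in WT NPC, 0.548 and 0.769 in KO ESC, and 0.157 and 0.148 in WT ESC. The KO NPC mean of 6.30 ± 2.03 was 7.01 times the WT NPC mean of 0.899 ± 0.0990 (SD, n = 2 each), a difference of 1.91 ± 0.19 (SE). KO ESC was also above WT ESC, by 0.52 ± 0.19, but the WT ESC values of Myl4 were near the floor, with deposited lower bounds of 0.

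Myl7 encodes the regulatory light chain of the atrium and of the early heart tube. It had FPKM 2.45 and 1.46 in KO NPC, was listed at 0 in both WT NPC libraries, and reached 13.99 and 18.5 in KO ESC and 17.7 and 18.8 in WT ESC. The 2 ESC groups overlapped and stood above both NPC groups, so Myl7 was the one gene of the 10 with its highest level before differentiation. The KO NPC values rest on 11 and 7 implied fragments, against 56.0 to 80.2 in ESC. The difference of 1.54 ± 0.19 (SE) between KO NPC and WT NPC depends on the pseudocount of 1, with 4.32 at a pseudocount of 0.1, and no fold is given against a group listed at 0.

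Of the actin genes, Acta2 encodes smooth muscle alpha-actin, which activated fibroblasts also make. Acta2 had FPKM 19.8 and 16.9 in KO NPC, 18.1 and 15.0 in WT NPC, 5.79 and 5.63 in KO ESC, and 5.79 and 4.48 in WT ESC. The genotypes overlapped at both stages, and NPC stood above ESC in both. The mean was 18.3 ± 2.03 in KO NPC and 16.6 ± 2.21 in WT NPC (SD, n = 2 each), a difference of 0.14 ± 0.15 (SE), on 105 to 533 implied fragments per library.

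Actc1 encodes cardiac alpha-actin, the main actin of the heart thin filament. Its FPKM was 0.218 and 0.407 in KO NPC, 0.271 and 0.832 in WT NPC, and 0 in all 4 ESC libraries. The NPC groups overlapped at 3 to 9 implied fragments, and Actc1 did not pass the filter of FPKM 1 in 2 libraries that the comparisons use. Transcripts of the muscle actin paralogs share identical runs of at most 38 bases (between Actc1 and Actg2; 23 between Acta2 and Actc1) in the longest coding transcripts of GENCODE M21, and how fragments that match several paralogs were assigned is not given in the sources used here.

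Tagln and Cnn1 encode transgelin and calponin-1, actin-binding proteins of smooth muscle. Tagln had FPKM 18.2 and 10.7 in KO NPC, 12.4 and 9.76 in WT NPC, 1.82 and 1.01 in KO ESC, and 1.24 and 1.09 in WT ESC. The genotypes overlapped at both stages, and the NPC difference of 0.31 ± 0.27 (SE) ran between -0.04 (without KO NPC library 1) and 0.67 (without KO NPC library 2) when one library was left out. Pcsk7 overlaps Tagln by 95 bases in the tables, and whether fragments were counted by strand is not given in the sources used here.

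Cnn1 had FPKM 3.18 and 1.99 in KO NPC, 1.62 and 1.05 in WT NPC, 0.365 and 0.0976 in KO ESC, and 0.120 and 0.0564 in WT ESC. KO NPC was above WT NPC in every pairing, with means of 2.59 ± 0.847 and 1.33 ± 0.409 (SD, n = 2 each), and the difference was 0.61 ± 0.21 (SE). Both NPC groups stood above both ESC groups, in which Cnn1 rests on 1 to 7 implied fragments.

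Sh3bgr encodes a small glutamic acid-rich protein with an SH3-binding motif, found in heart and skeletal muscle. It had FPKM 34.0 and 27.6 in KO NPC, 2.38 and 2.75 in WT NPC, 0.333 and 0.701 in KO ESC, and 0.574 and 0.630 in WT ESC. KO NPC was above every other library, and the mean of 30.8 ± 4.55 in KO NPC was 12.04 times that of 2.56 ± 0.264 in WT NPC (SD, n = 2 each). The difference of 3.15 ± 0.17 (SE) was the largest of the 9 genes that passed the filter, and it ran from 3.01 to 3.30 when each library was left out. Among the genes whose KO NPC libraries both stood above all others, Sh3bgr was the best covered, with 380 and 437 implied fragments in KO NPC.

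Counted over the 9 genes that passed the filter, 5 were above threshold in KO NPC against WT NPC (Tnnt2, Tnni1, Myl4, Myl7 and Sh3bgr), none was below it, and 4 did not pass (Tnnc1, Acta2, Tagln and Cnn1). Over all genes tested, 14.7% were called higher and 12.7% lower in this comparison. The median difference of the 9 genes was 1.54, against 0.05 for all genes tested. Since the levels in these groups chose the genes, nothing is read from this count.

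In KO ESC against WT ESC, 0 of the 9 genes passed, with 0.248% of all genes called. Their median difference was 0.03, between -0.17 for Myl7 and 0.52 for Myl4. The values of the other genes overlapped between the 2 ESC groups. The excess of the NPC difference over the ESC difference was 2.44 for Tnnt2, 2.18 for Tnni1, 3.24 for Sh3bgr, 1.71 for Myl7, 1.39 for Myl4, 0.81 for Tnnc1, 0.44 for Cnn1, 0.18 for Tagln and 0.00 for Acta2. Of the 9 genes 5 passed for this excess, all positive, and of all genes 8.41% were called positive and 16.8% in either direction. Nothing is read from these counts either, since the levels in these groups chose the genes.

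**Figure D2:**
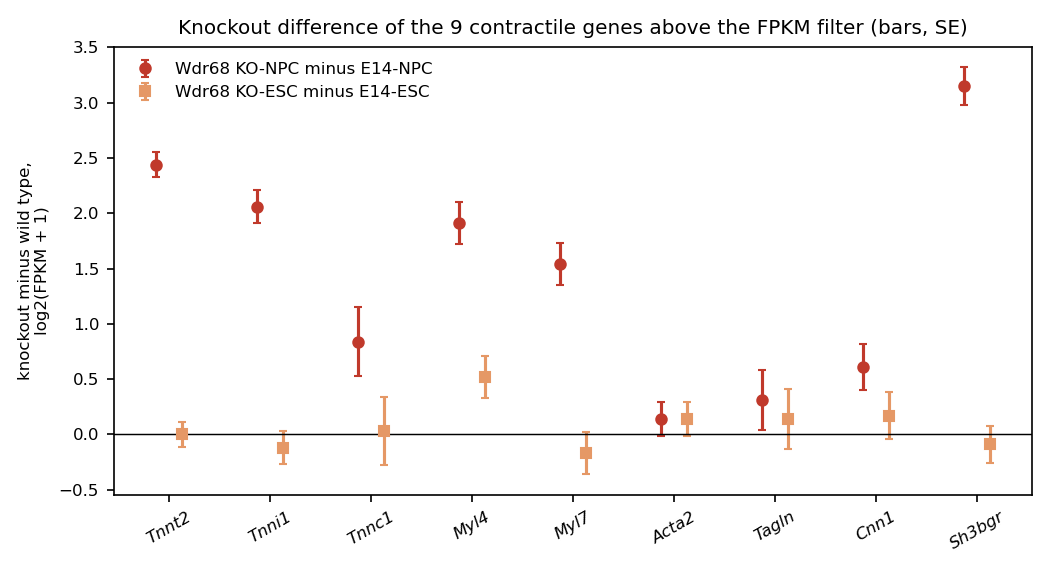
Knockout minus wild-type difference in log2(FPKM + 1) for the 9 genes that passed the filter, in NPC (circles) and ESC (squares), with SE bars. Sh3bgr, Tnnt2, Tnni1, Myl4 and Myl7 lie between 1.54 and 3.15 in NPC, whereas the ESC values lie between -0.17 and 0.52.

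Between stages, 7 of the 9 genes were above threshold in KO NPC against KO ESC and 1 was below it. Of all genes, 41.6% were called higher and 28.8% lower there, 70.3% in all. In WT NPC against WT ESC 7 of the 9 were above threshold and 1 was below it, where 41.6% of all genes were called higher and 31.1% lower, 72.6% in all. These 2 comparisons do not share libraries. The levels in the same groups chose the genes, so these counts too are descriptions and nothing is read from them. Tagln was higher in NPC by 2.65 ± 0.27 in KO and 2.48 ± 0.27 in WT cells (SE). Acta2 was higher in NPC by 1.52 ± 0.15 in both genotypes, and Cnn1 by 1.53 ± 0.21 in KO and 1.09 ± 0.21 in WT cells. Sh3bgr was higher in NPC by 4.39 ± 0.17 in KO and 1.15 ± 0.17 in WT cells, and Tnnt2 by 2.77 ± 0.11 in KO and 0.33 ± 0.11 in WT cells. Myl7 was lower in NPC in both genotypes, at -2.55 ± 0.19 in KO and -4.27 ± 0.19 in WT cells. Tnnc1 did not pass in either, at 0.56 ± 0.31 in KO and -0.25 ± 0.31 in WT cells.

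The genes most like the contractile set were those with the highest Pearson's r, over the 8 libraries, between their log2(FPKM + 1) and the mean standardised profile of the 9 genes that passed the filter. Genes with a mean FPKM of at least 5 in their highest group were considered. The 9 genes did not share one profile, with r between pairs of them from -0.913 (Myl7 and Acta2) to 0.990 (Acta2 and Tagln). A gene close to their mean is therefore not close to each of them. The 6 closest were Cav1, Zfpm2, Ccng1, Hlx, Col25a1 and Fendrr, with r between 0.993 and 0.995 over 8 libraries that form only 4 groups. Cav1, which encodes the coat protein of caveolae, had FPKM 12.5 and 10.2 in KO NPC, 1.14 and 1.23 in WT NPC, and 0 in ESC. The long noncoding RNA Fendrr, known from lateral plate mesoderm, had 26.1 and 25.6 in KO NPC, 1.82 and 1.01 in WT NPC, and at most 0.0877 in ESC. Zfpm2 encodes a cofactor of GATA factors and Hlx a homeobox factor of gut mesenchyme, and their KO NPC means were 6.85 ± 0.776 and 7.40 ± 1.56, against 0.937 ± 0.415 and 0.904 ± 0.242 in WT NPC (SD, n = 2 each).

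Most other sarcomere genes of the heart were below the filter. Of 24 further cardiac sarcomere genes, 5 passed the filter (Myl2, Tnni3, Tnnt1, Tpm1 and Cryab). In KO NPC against WT NPC limma called 0 of these 5, and also 0 at an unadjusted p under 0.05. Of all 13318 genes 27.4% were called, and 5188 had an unadjusted p under 0.05. The median difference of the 5 genes was -0.09, against 0.05 for all genes tested. Myl2 and Tnnt1 passed the filter only through ESC, and Tnnt1 had FPKM of at most 0.972 in any NPC library. Tpm1 was also at 31.1 to 36.5 in ESC. This count and median therefore cannot tell whether cardiac sarcomere genes changed in KO NPC. The cardiac myosin heavy chain gene Myh6 had FPKM 0.0888 and 0.111 in KO NPC, against 0.0207 and 0 in WT NPC. The other heavy chain gene, Myh7, had 0.0441 and 0.0688 in KO NPC, against 0.0481 and 0 in WT NPC. Myl2, the ventricular regulatory light chain, was listed at 0 in all NPC libraries. Tnni3, the adult cardiac troponin I, had 1.80 and 2.21 in KO NPC, against 1.56 and 3.01 in WT NPC, with an adjusted p of 0.835 in limma.

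Of 20 further smooth muscle contractile genes, 14 passed the filter. In KO NPC against WT NPC 4 of them rose, 1 fell and 9 did not pass (limma, adjusted p under 0.05), where 14.7% of all genes were called higher and 12.7% lower. Their median difference was 0.28, against 0.05 for all genes tested. Mylk, the kinase that phosphorylates the myosin regulatory light chain, had FPKM 2.99 and 3.19 in KO NPC, against 0.338 and 0.447 in WT NPC, and rose by 1.55 ± 0.11 (SE, adjusted p = 1.2e-04). Pgm5, a structural protein of adhesion sites, had 2.70 and 2.03 in KO NPC, against 0.218 and 0.314 in WT NPC, and rose by 1.40 ± 0.13 (adjusted p = 3.7e-04). Both genes were therefore above the range of both WT NPC libraries, at low absolute levels.

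Cald1, the actin-binding protein caldesmon, was abundant at 62.8 and 56.1 in KO NPC, against 44.9 and 40.2 in WT NPC, and rose by 0.47 ± 0.11 (adjusted p = 0.0178). Its call was lost without WT NPC library 2 (adjusted p = 0.101), without KO NPC library 1 (0.106) and with no filter (0.0674). The fourth that rose, Smtn, which encodes smoothelin, was named after its values were seen and rose by 0.37 ± 0.11 (adjusted p = 0.041). Its call was lost without any single library of WT NPC, KO NPC or KO ESC and under 4 other settings (adjusted p = 0.0519 to 0.142). Without WT NPC library 2 or KO NPC library 1 the number of this list that rose was 2.

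Of the same list, Myh11, Actg2 and Myl9 were named by rule whatever their values. Myh11, the smooth muscle myosin heavy chain, had FPKM 0.173 and 0.193 in KO NPC, against 0.167 and 0.137 in WT NPC. Actg2, the enteric smooth muscle actin, had 1.01 and 0.290 in KO NPC, against 0.796 and 0 in WT NPC. Myl9, the smooth muscle regulatory light chain, had 16.1 and 9.26 in KO NPC, against 9.60 and 9.85 in WT NPC, and a difference of 0.31 ± 0.24 (SE, adjusted p = 0.395 in limma), and without KO NPC library 2 it passed at 0.68 (adjusted p = 0.0467). In KO ESC against WT ESC limma called 0 of the 19 tested genes of both lists, with 0 higher and 1 lower at an unadjusted p under 0.05. Of all 13318 genes 0.248% were called there, and 1686 had an unadjusted p under 0.05.

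**Figure D3:**
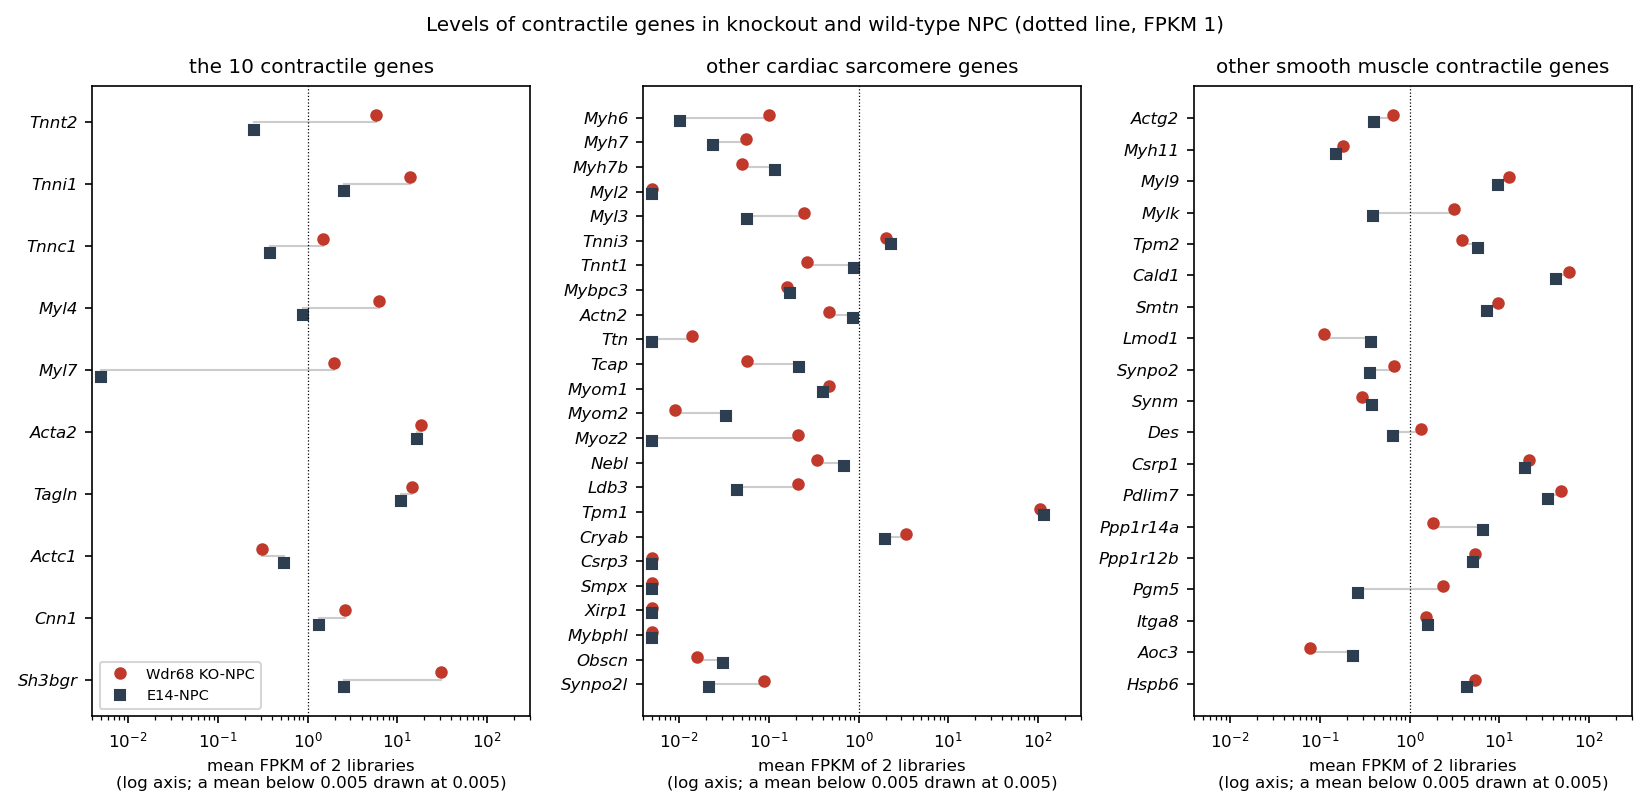
Mean FPKM of 2 libraries (horizontal log axes) in KO NPC (circles) and WT NPC (squares) for the 10 genes, 24 further cardiac sarcomere genes and 19 of the 20 further smooth muscle contractile genes; the dotted line marks FPKM 1. Most cardiac sarcomere genes lie left of the line in both groups, and in the smooth muscle list Mylk, Pgm5 and Des lie right of it in KO NPC and left of it in WT NPC. Of these, Des was not called (limma adjusted p = 0.142), with FPKM 1.86 and 0.844 in KO NPC, against 0.787 and 0.536 in WT NPC.

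Regulators of heart and smooth muscle genes were taken as a separate list. Of 24 such transcription factors and cofactors 19 were tested, of which 12 rose, 1 fell and 6 did not pass in KO NPC against WT NPC, with 14.7% and 12.7% of all genes called in these directions. The median difference was 0.87, and 9 to 12 rose when each library was left out. Foxf1, a forkhead factor of lateral plate and visceral mesoderm, had FPKM 67.8 and 59.5 in KO NPC, against 5.10 and 3.11 in WT NPC (difference 3.69 ± 0.19, limma adjusted p = 3.9e-05). Gata4, a zinc finger factor of heart and endoderm, had 29.97 and 23.5 in KO NPC, against 3.50 and 1.82 in WT NPC (2.95 ± 0.24, adjusted p = 2.1e-04). Both were higher in 2 of 2 KO NPC libraries by more than the spread of either group.

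Zfpm2 rose by 2.03 ± 0.17 (limma adjusted p = 2.1e-04), and Isl1, a LIM homeobox factor of second heart field progenitors and of motor neurons, rose by 1.98 ± 0.20 (4.8e-04). Tbx2, a T-box repressor named after its values were seen, fell by 0.79 ± 0.14 on the log2 scale (adjusted p = 0.00531). Tbx5 had FPKM 3.18 and 2.27 in KO NPC, against 1.28 and 1.90 in WT NPC, and missed the threshold (0.52 ± 0.17, adjusted p = 0.0591), which it passed without WT NPC library 2 (0.0444) or KO NPC library 2 (0.0434). The core cardiac factor Nkx2-5 had at most 0.244 in any NPC library. Myocd, the coactivator of smooth and cardiac muscle genes, had 0.126 and 0.388 in KO NPC, against 0.0337 and 0.0919 in WT NPC. Srf, which encodes the factor that binds the CArG box, had 14.4 and 9.07 in KO NPC, against 8.39 and 10.1 in WT NPC (0.28 ± 0.20, adjusted p = 0.341), and without KO NPC library 2 it passed at 0.59 (adjusted p = 0.0432).

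Of 16 non-muscle relatives of the 10 genes, 3 rose and 2 fell in KO NPC against WT NPC (limma), shares near the 14.7% and 12.7% of all genes called in these directions. Tagln3, the neuronal relative of Tagln, had FPKM 3.23 and 7.56 in KO NPC, against 124 and 121 in WT NPC, and fell by 4.36 ± 0.31 on the log2 scale (adjusted p = 1.2e-04). Tagln2, the widely expressed relative, rose by 0.92 ± 0.09 (4.5e-04), and Cnn3 fell by 0.40 ± 0.06 (0.00216). Myh9, a non-muscle myosin heavy chain, rose by 0.38 ± 0.09 (0.0174). Actb, cytoplasmic beta-actin, averaged 875 ± 60.6 in KO NPC and 886 ± 33.0 in WT NPC (SD, n = 2 each; adjusted p = 0.913). Of 10 tested targets of SRF and YAP, 2 rose and 3 fell, against 14.7% and 12.7% of all genes. Of 14 genes of calcium handling and natriuretic peptides 3 were tested. Only Atp2a2, the sarcoplasmic calcium pump, was called, and it fell by 0.37 ± 0.08 (0.0116). Atp2a2 was also at 62.5 to 82.6 in ESC. With no filter 3 of the 14 rose and 3 fell. Without WT NPC library 1 or KO NPC library 2 the calls of Atp2a2 (0.0591 and 0.0649) and Myh9 (0.0832 and 0.0920) were lost, and that of Myh9 also with only the 2 groups in the fit (0.0709).

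Lists for other cell types were set beside these genes, and in KO NPC against WT NPC their counts stand against 14.7% of all genes called higher and 12.7% lower. Of 20 skeletal muscle genes 4 were tested and limma called 0 in KO NPC against WT NPC (0 higher and 1 lower at an unadjusted p under 0.05). Their summed FPKM was 8.29 to 9.89 in KO NPC and 10.3 to 10.9 in WT NPC, and the skeletal determination genes Myod1 and Myog were at 0 in both KO NPC libraries. Of 14 mesoderm genes 10 were tested, of which 6 rose and 1 fell, and their sum was 76.3 to 82.7 in KO NPC, against 35.4 to 35.5 in WT NPC. Tcf21, a factor of epicardial and other mesenchyme, rose by 2.34 ± 0.13 (adjusted p = 4.5e-05).

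Of 12 endothelial and blood genes 10 were tested and 9 rose (against 14.7% of all genes), with a sum of 868 to 1066 in KO NPC, against 95.8 to 126 in WT NPC. Most of that sum was embryonic globin, with Hba-x at 430 and 525 in KO NPC, against 52.2 and 42.7 in WT NPC (difference 3.31 ± 0.16, limma adjusted p = 3.0e-05). Of 12 neural progenitor genes 11 were tested and 10 fell (against 12.7% of all genes), with a sum of 49.8 to 53.0 in KO NPC, against 312 to 313 in WT NPC. Sox2, a factor of pluripotent and neural stem cells, fell by 3.51 ± 0.20 on the log2 scale (adjusted p = 4.9e-05). The part of these cell types in the levels of the contractile genes was not tested.

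Fibroblasts make Acta2, Tagln and Cald1 too, and part of the ESC were kept on fibroblast feeders. Of 16 fibroblast genes 15 were tested, and 2 rose and 8 fell in KO NPC against WT NPC (against 14.7% and 12.7% of all genes), with a sum of 121 to 142 in KO NPC and 136 to 156 in WT NPC. In WT NPC against WT ESC 15 of the 15 rose, against 41.6% of all genes, and the sums in ESC were 4.61 to 5.10 in KO ESC and 5.66 to 5.86 in WT ESC. Col1a1, a fibrillar collagen chain, averaged 12.2 ± 1.46 in KO NPC and 21.2 ± 0.594 in WT NPC (SD, n = 2 each). The 7 contractile genes that were higher in NPC than in ESC of both genotypes (Acta2, Tagln, Cnn1, Tnnt2, Tnni1, Myl4 and Sh3bgr) moved in the same direction as this list between stages, and its part in them was not tested. Of 8 pluripotency genes 2 rose and 1 fell in KO NPC against WT NPC, and Pou5f1 averaged 1.68 ± 0.385 in KO NPC and 2.26 ± 0.764 in WT NPC, against 850 ± 12.3 in KO ESC and 813 ± 36.1 in WT ESC.

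**Figure D4:**
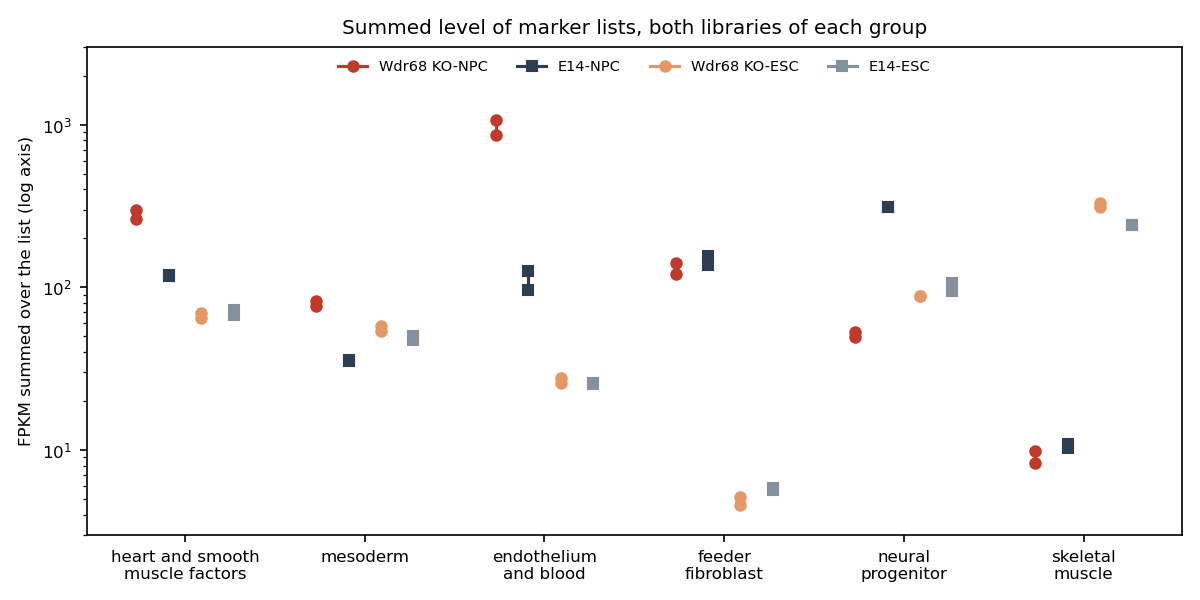
FPKM summed over each marker list (vertical log axis) in both libraries of KO NPC, WT NPC, KO ESC and WT ESC. The endothelial and blood sum is 868 to 1066 in KO NPC against 95.8 to 126 in WT NPC, the neural progenitor sum is lower in KO NPC, and the fibroblast sums are high in NPC of both genotypes.

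Of the 10 genes, Tnni1 and Tnnt2 lie close together on chromosome 1 (mm9, 137695998 to 137707566 and 137732911 to 137748845), with Lad1 between them, 7608 bases from Tnni1 and 2992 bases from Tnnt2. Lad1, which encodes an anchoring filament protein of epithelia, rose by 0.90 ± 0.21 in KO NPC against WT NPC (limma adjusted p = 0.0203), a call lost without WT NPC library 1 or either KO NPC library (0.0787 to 0.0953), at a pseudocount of 0.1 (0.0758), with no filter (0.0888) and with only the 2 groups in the fit (0.0619). Itgb3, the integrin beta 3 subunit gene 20780 bases from Myl4, rose by 2.01 ± 0.11 (adjusted p = 5.2e-05). Pcp4, 238672 bases from Sh3bgr, fell by 1.63 ± 0.28 on the log2 scale (0.00531). Of 20 tested genes that flank the 10 genes, 5 rose (the others Phlda3, Cdc27 and Lipa) and 1 fell, against 27.4% of all genes called in either direction. The call of Lipa was lost in all 8 fits that left out a library and under 4 other settings (0.0549 to 0.153). That of Cdc27 was lost without WT NPC library 2 or either KO NPC library and under 5 other settings (0.0618 to 0.153), and that of Pcp4 with only the 2 groups in the fit (0.0561). The neighbours of Acta2, Tagln, Cnn1, Actc1, Tnnc1 and Myl7 other than Lipa did not pass the threshold.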

How the data were processed

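Poly(A) RNA was sequenced with a directional kit in 8 libraries, per the labels' protocols. The submitters' processing notes name TopHat2 2.1.1, Cufflinks 2.2.1 and the build mm9. The deposited gene tables give FPKM with 95% bounds and no counts. Each table had 24854 entries and 24318 symbols. The 285 symbols with several entries were summed, and 12 with a failed estimate were left out.

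Fragment numbers were inferred from the deposited upper bound, which lies 2 square roots of the fragment number above the FPKM of a gene with 1 start site. Among such genes with fewer than 5 fragments, 62.2% to 66.4% were within 0.05 of a whole number. The other such genes were not, so implied numbers are approximate, and those below 1 cannot be read as fragments. The relation was not checked for genes with 2 start sites, such as Tnnt2 and Tnni1. Each interval comes from 1 library and does not cover the spread between libraries.

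A gene entered the comparisons if 2 or more libraries had FPKM 1 or higher, which 13318 genes did. Values were log2(FPKM + 1), fitted by limma 3.58.1 (R 4.3.3) with a mean per group for the 4 groups, empirical Bayes moderation with a trend, and 4 residual degrees of freedom. Tests were two-sided, adjusted by Benjamini-Hochberg over all 13318 genes. This scale understates changes of low genes. The procedure was tested on simulated data. The 10 genes, 12 gene lists, tests and naming rule were chosen with earlier results of these data known. Named were the 10 genes, a fixed set of muscle and control genes, up to 4 called genes per list with the largest change and a mean FPKM of at least 2 in the higher group, the 6 genes most alike and the flanking genes. Same-numbered libraries showed no shared deviation (r from -0.0543 to 0.179), so no pairing was used. 1 gene of the smooth muscle list enters its counts and sums but is not reported individually here. Promoter windows came from RefSeq (GRCm38.p6), and gene positions from the tables (mm9).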

Additional observations from a re-analysis of the deposited data

Results flagged for a closer look

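For genes outside the chosen 10, the knockout difference in NPC exceeded or fell short of that in ESC by the interaction term of limma (log2 difference in NPC minus that in ESC, adjusted over all genes). Contractile and adhesion genes of this kind were Mylk at 1.64 ± 0.16 (SE, adjusted p = 0.00106) and Pgm5 at 1.34 ± 0.18 (0.00405). Regulators were Foxf1 at 3.72 ± 0.27 (3.9e-04), Gata4 at 3.11 ± 0.34 (0.00164), Zfpm2 at 1.95 ± 0.23 (0.00245), Isl1 at 1.67 ± 0.28 (0.00842) and Tbx2 at -0.79 ± 0.19 (0.0318). The calls of Isl1 and Tbx2 were lost at a pseudocount of 0.1, with adjusted p of 0.213 and 0.142. The call of Tbx2 was also lost with no filter (0.0776) and in 7 of the 8 fits that left out a library (0.0608 to 0.0862).

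Among relatives of the contractile genes, Tagln3 differed by -4.82 ± 0.44 (limma adjusted p = 8.7e-04), Tagln2 by 0.91 ± 0.13 (0.00422) and Cnn3 by -0.45 ± 0.08 (0.00993). Markers of other cell types were Tcf21 at 2.34 ± 0.18 (4.6e-04), Foxc2 at 1.43 ± 0.26 (0.0124), Meox1 at 1.29 ± 0.16 (0.00301), Hba-x at 3.18 ± 0.23 (3.5e-04), Hbb-bh1 at 2.68 ± 0.51 (0.0137), Hbb-y at 2.89 ± 0.26 (8.6e-04), Tal1 at 2.30 ± 0.20 (7.2e-04), Col1a1 at -0.77 ± 0.18 (0.0272) and Sox2 at -3.33 ± 0.28 (6.1e-04). At a pseudocount of 0.1 the calls of Foxc2 (0.211), Hba-x (0.0728), Hbb-bh1 (0.551), Hbb-y (0.0817) and Col1a1 (0.271) were lost. With no filter those of Foxc2 (0.0589), Hbb-bh1 (0.0822) and Col1a1 (0.0562) were lost. Hbb-bh1 also lost its call without WT NPC library 2 (0.0539) or KO NPC library 2 (0.0546), and Col1a1 in 7 of the 8 fits that left out a library (0.0525 to 0.0793).

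Flanking genes of the 10 were Itgb3 at 2.16 ± 0.16 (limma adjusted p = 4.0e-04), Lad1 at 1.13 ± 0.30 (0.0448), Phlda3 at 0.59 ± 0.13 (0.0266), Cdc27 at 0.52 ± 0.11 (0.0232) and Pcp4 at -1.63 ± 0.39 (0.0318). The calls of Lad1, Phlda3, Cdc27 and Pcp4 were each lost with no filter and in several of the settings that left out a library. With 2 libraries per group, single outlying libraries could not be flagged.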

How the results depend on the processing

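The 9 contractile genes that passed the filter kept their direction wherever they were called: of their values under 17 alternative settings, 614 moved by less than the spread between libraries, 127 moved by more and 0 reversed among called values. For other named genes 3310 values were unchanged in call, 137 lost it, 37 gained it and 4 changed sign with a call in either fit. All 4 were under quantile normalization in WT NPC against WT ESC: Mylk at -0.05, Cnn3 at 0.38, Tal1 at -0.47 and Itgb3 at -0.36. In the main fit only Mylk of these was called there (0.37, limma adjusted p = 0.0208). The cause was not tested. Median-ratio scaling shifted the median difference of all genes in KO NPC against KO ESC by -0.14. The number of genes called with one library left out was 2281 to 3340 in KO NPC against WT NPC (3648 with all), 10 to 18 in KO ESC against WT ESC (33 with all) and 1283 to 1822 for the interaction (2237 with all). The lowest were without KO NPC library 1, WT ESC library 1 and KO ESC library 2.

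In KO ESC against WT ESC, 3 genes were called with only the 2 groups in the fit and 15 with the replicate block, although the shared numbers were not shown to pair the libraries. The block gave 3423 genes in NPC and 2070 for the interaction, and of the contractile lists 3 higher and 1 lower in NPC. Of both contractile lists (44 genes, 19 tested), 4 rose and 1 fell in KO NPC against WT NPC, against 14.7% and 12.7% of all genes. In other settings 2 rose at an FPKM minimum of 5 and 2 fell with no filter. Both counts moved when a library was left out. In KO ESC against WT ESC 0 of the 19 passed, where 0.248% of all genes were called, and 1 rose with no filter. In WT NPC against WT ESC 9 rose and 4 fell, against 41.6% and 31.1% of all genes. The number that fell was 1 at an FPKM minimum of 5 and moved when a library was left out. In KO NPC against KO ESC 10 rose and 2 fell, against 41.6% and 28.8% of all genes. The number that fell was 5 with no filter, 1 at an FPKM minimum of 5 and 1 with only the 2 groups. It also moved when a library was left out. For the interaction 2 were higher and 0 lower, against 8.41% and 8.39% of all genes. At an FPKM minimum of 5 these were 0 and 1, and 1 was lower with no filter, median-ratio scaling, quantile normalization or no variance trend, and 2 to 4 higher and 0 to 1 lower when a library was left out. Genes at a few fragments, such as Tnnc1, Myl7 in NPC and Actc1, are limited by depth.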

Other observations

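In the skeletal muscle list, the gene with the highest level in ESC was Mylpf. Mylpf, the regulatory light chain of fast skeletal muscle, was chosen after its values were seen. It had FPKM 2.34 and 1.17 in KO NPC, 5.55 and 2.59 in WT NPC, 304 and 322 in KO ESC, and 231 and 233 in WT ESC. It made up most of the summed level of the skeletal muscle list in ESC, which was 314 to 329 in KO ESC and 240 to 242 in WT ESC, while Myog was listed at 0 in all libraries.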
